A study of Homo sapiens with 12 samples.

Results

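The genes described here were 53 interferon-stimulated genes and nucleic acid sensors, taken by name from a written list and matched by symbol to the 60648 genes of the count table. They were measured by RNA-seq of poly-A-selected RNA in HCT116, an established human colon cancer cell line, in 4 groups of 3 libraries. The groups were MTHFD2 wild-type (MTHFD2-WT) cells and MTHFD2 knock-out (MTHFD2-KO) cells, each harvested at an initial time, right after the knock-out was made, and at a final time, after 2 months of culture. MTHFD2 is an enzyme of mitochondrial one-carbon folate metabolism. All knock-out libraries came from a single clone made with CRISPR-Cas9, so the effect of the genotype and of the clone cannot be told apart. All groups grew in the same serum-containing medium, and the labels name no interferon, virus or other agent in any of them. Libraries held between 38597809 and 40017561 counts. The design text calls the 3 libraries of a group biological replicates without saying how the cultures were separated, so p-values measure the spread between these libraries.

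Cells sense foreign or misplaced RNA through the helicases RIG-I (gene RIGI) and MDA5 (gene IFIH1), which signal through MAVS, and DNA through cGAS, which signals through STING. Both routes lead to the making of type I interferons, which bind the receptor chains IFNAR1 and IFNAR2 and activate a complex of STAT proteins and IRF9. That complex binds the interferon-stimulated response element in promoters and switches on a large set of antiviral genes, many of which also have a low level of expression without interferon. In colon epithelium the same genes form part of the defence of the lining, and in tumour lines their level without infection varies from line to line.

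Between the genotypes the members did not move as a block in the same direction. Whether members varied together across libraries was not tested. When knock-out and wild type were compared as an average of both harvests, 21 of the 46 members that could be tested passed the threshold (45.7%), of which the knock-out had 10 higher and 11 lower. Of all 18289 genes tested 30.1% passed, 14% higher and 16.1% lower. The median log2 fold change of the members was 0.01, with 23 members above 0 and 23 below, and that of all genes was 0.003. The RNA sensor gene IFIH1 and the interferon-induced gene IFI35 fell most, by 1.51 and 1.16 on the log2 scale, and OAS2, TRIM22 and RSAD2 rose by 0.94, 0.91 and 0.89. A gene passed when its adjusted p (Benjamini-Hochberg over all genes tested) was under 0.05 in edgeR's quasi-likelihood test. Values per library are CPM, counts scaled to a common library size with edgeR's TMM factors. In bulk RNA, fewer cells expressing a gene and less RNA of it per cell cannot be told apart.

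The knock-out label was checked on MTHFD2 itself. Its transcript ranged from 122.8 to 155 CPM over the 6 knock-out libraries and from 319 to 457 CPM over the 6 wild-type ones, with no overlap. All 8 markers of colon epithelium passed the count filter. Their sums were lower in the knock-out without overlap, at 2959 to 3155 against 3173 to 3819 CPM initially and at 2668 to 3060 against 3617 to 4005 CPM finally. Of 8 leukocyte markers 3 passed, with sums of 1.46 to 2.66 CPM over the wild-type libraries and 2.62 to 3.71 CPM over the knock-out libraries, and PTPRC, which marks all leukocytes, had a mean of at most 0.0437 CPM in any group. Of 7 fibroblast markers 3 passed, most of their sum being COL1A1. That sum was 37.5 to 48.2 CPM in knock-out against 56.8 to 69.9 CPM in wild-type libraries initially and 43.4 to 59.3 against 60.2 to 78.8 CPM finally, while DCN and LUM had no count in any library. The part of these marker differences in the members' values was not tested.

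The promoters of members were read first for the motif that the interferon-activated complex binds, a feature that does not depend on the counts. The list names interferon-stimulated genes, so a higher share of matches than among all genes describes how it was chosen. A promoter here is 250 bases before to 50 bases after a RefSeq start in GRCh38.p14, and the motif searched was GAAA, then any 2 bases, then GAAA, on either strand, where its other-strand form reads TTTC, any 2 bases, TTTC. Matches that overlap were each counted. RefSeq windows were found for 42 of the 53 members. At least 1 match was present in 24 of these 42 members (57.1%), against 1195 of all 27305 genes with a window (4.38%), and in 29 of the members' 60 windows (48.3%) against 1255 of 35116 windows (3.57%). The following stretches show the matches of 4 members whose values are given in every library below, and the same kind of window from IFI35, which has none, with the matching letters in capitals.
IFIH1, chr2:162318821-162318850, minus strand, bases -166 to -137 from the start: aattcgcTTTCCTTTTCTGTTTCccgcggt
IFIH1, chr2:162318686-162318715, minus strand, bases -31 to -2 from the start: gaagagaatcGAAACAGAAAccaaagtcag
IFI6, chr1:27672256-27672368, minus strand, bases -176 to -64 from the start: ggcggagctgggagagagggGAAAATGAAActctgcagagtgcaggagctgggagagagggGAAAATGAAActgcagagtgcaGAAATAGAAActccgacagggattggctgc
ISG20, chr15:88638937-88638966, plus strand, bases -79 to -50 from the start: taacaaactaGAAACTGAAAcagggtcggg
RSAD2, chr2:6877622-6877651, plus strand, bases -155 to -126 from the start: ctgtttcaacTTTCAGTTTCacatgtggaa
IFI35, chr17:43006754-43006783, plus strand, bases -30 to -1 from the start: gcagggatttcacggaaatgaaagtggaag

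The first IFIH1 stretch holds 2 matches that overlap and the IFI6 stretch holds 3 matches. Members of both directions held the motif. Of the 24 members with a match, 5 were higher (20.8%) and 4 lower (16.7%) in the knock-out over both harvests. Another 14 of them did not pass the threshold and 1 was not tested. Of the 18 members with a window and no match, 1 was higher (5.56%), 6 were lower (33.3%), 7 did not pass and 4 were not tested. Of all genes tested 14% were higher and 16.1% lower. OAS2, OASL and TRIM22 are among the members without a window, and a link between motif and direction was not tested. IFIH1 and IFI6 both hold several matches and moved in different ways, as the values below show. A match is a description of the letters and was not tested as a binding site.

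**Figure D1:**
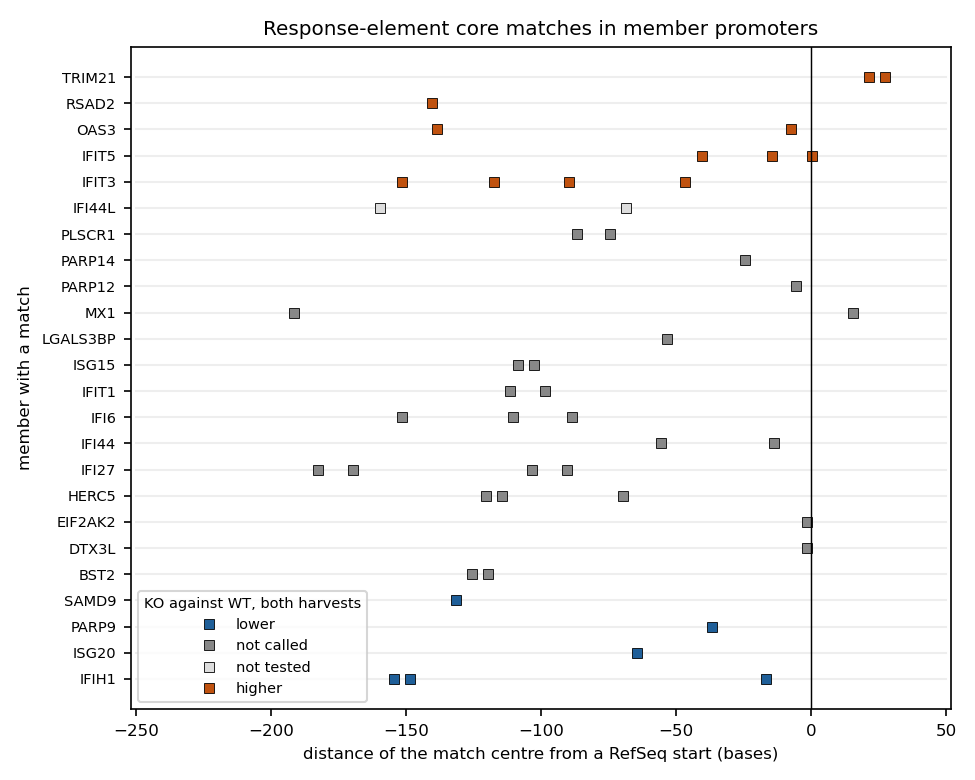
Position of each match to the interferon-stimulated response element core, on either strand, in the RefSeq promoter windows of the members that hold one (x axis, distance of the match centre from a start in bases; y axis, member). Colours give the call over both harvests. The 24 members with a match are shown, most matches lie before the start, and members of both directions hold them.

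Levels differed widely between members. They were taken per kilobase of annotated exons, counting every exon of a gene whether used in these cells or not. On average over the 12 libraries, 8 of the 53 members stood at 10 CPM per kb or more, 23 at 1 to under 10, and 22 under 1. LGALS3BP, a secreted glycoprotein gene, was highest at 320.7 CPM per kb, with libraries from 269.3 to 401.6, and no other member's range reached it. ISG15, a ubiquitin-like modifier gene, followed at 50.3 CPM per kb with libraries from 23.8 to 63.6. Its range held those of ADAR, the RNA-editing enzyme gene, at 37.4 CPM per kb and of the adaptor gene MAVS at 31.8. ADAR and MAVS overlapped each other only narrowly, from 34.0 to 34.7 CPM per kb. TRIM25, whose product ubiquitinates RIG-I, came next at 19.4 CPM per kb, and its libraries, up to 20.6, overlapped those of STAT2 at 15.1 CPM per kb, which reached 20.4.

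**Figure D2:**
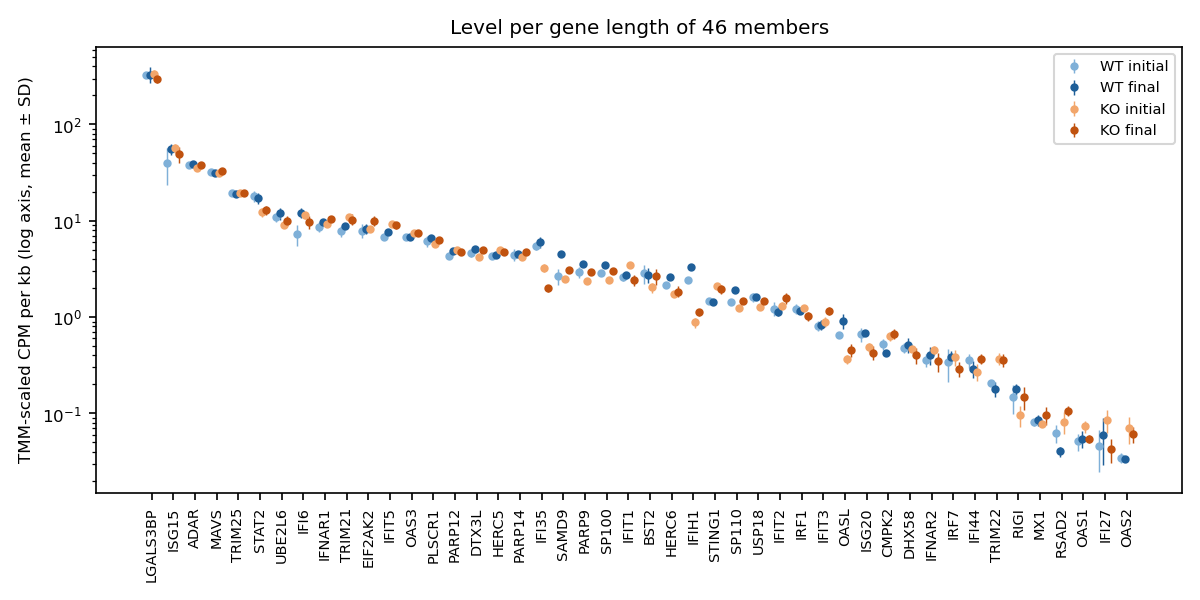
Level of the 46 tested members in CPM per kilobase of annotated exons (y axis, log scale), as the mean and SD of 3 libraries for each of the 4 groups, ordered by level. LGALS3BP, at 320.7 on average, stands above all other members, and for most members the 4 groups lie close together compared with the distance between genes.

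The other 7 members had too few counts to be tested. IRF9, the DNA-binding partner of the interferon-activated complex, had 0 counts in all 12 libraries. By counting error alone this allows up to 0.0814 CPM in the wild-type final group, where this limit was highest. In the annotation 42.2% of the exon bases of IRF9 also belong to ENSG00000259529 on the same strand, a gene with 0 counts in all libraries too. The part of this overlap in the 0 was not tested. CGAS, the DNA sensor gene, reached at most 6 counts in any library. IFI16, a nuclear DNA-binding protein gene, reached 9, MX2, a gene for a dynamin-like antiviral GTPase, 10, SAMD9L 5, IFI44L 3 and XAF1 2. In a fit with no count filter, in which IRF9 again could not be tested, IFI16 passed in 1 comparison, the change over time in the wild type (adjusted p = 0.0483). It had 3, 3 and 9 counts in the wild-type initial libraries and 1, 0 and 0 in the wild-type final libraries. The other 5 passed in no comparison, and differences between their groups were not detectable at this depth.

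Among the sensors, IFIH1 fell and the others did not pass the threshold. IFIH1 (ENSG00000115267.9, chr2:162267074-162318684 in GRCh38, minus strand) stood at 12.01, 11.98 and 13.2 CPM in the wild-type initial libraries and at 3.86, 4.79 and 4.82 CPM in the knock-out initial libraries. At the final harvest it stood at 16.3, 16.8 and 17.5 CPM in the wild type and at 5.61, 5.28 and 6.25 CPM in the knock-out. Every knock-out library lay below every wild-type library, and the highest knock-out value, 6.25 CPM, was well under the lowest wild-type value. Initially its log2 fold change was -1.46 (SE 0.111, adjusted p = 9.81e-08), and finally it was -1.56 (SE 0.108, adjusted p = 2.8e-08). Over time IFIH1 rose by 0.44 in the wild type (SE 0.103, adjusted p = 0.0155), and its change in the knock-out was 0.35 (adjusted p = 0.157), with the interaction at -0.09 (adjusted p = 0.847). The rise in the wild type lost its call without wild-type final library 2 (0.45, adjusted p = 0.0545) or library 3 (0.41, adjusted p = 0.0776).

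RIGI had means of 1.54 ± 0.513 CPM (SD, n = 3) in wild-type initial and 0.993 ± 0.247 CPM in knock-out initial libraries, and its fold change over both harvests was -0.44 (SE 0.183, adjusted p = 0.08). In the annotation 43.2% of its exon bases are shared with another gene on the same strand. DHX58, which encodes LGP2, a helicase of the same family that lacks the signalling domains, had group means from 1.54 to 1.97 CPM and a fold change of -0.19 (adjusted p = 0.278). All 3 tested sensors had a log2 fold change below 0 at both harvests, and 1 of the 3 passed.

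Of the adaptors, STING1 rose and MAVS did not pass. STING1, which encodes the adaptor below cGAS, stood at 7.33, 6.45 and 7.46 CPM in wild-type initial libraries against 10.2, 10.5 and 9.39 in knock-out initial libraries. At the final harvest the values were 7.38, 6.54 and 6.62 CPM against 8.15, 10.0 and 9.85 CPM. The genotypes did not overlap at either harvest. STING1 changed by 0.50 on the log2 scale (SE 0.111, adjusted p = 0.00401) initially and by 0.45 (SE 0.112, adjusted p = 0.0092) finally, where the call was lost without wild-type final library 2 (0.41, adjusted p = 0.051). MAVS, which relays both RNA sensors, had group means from 367 to 386 CPM and a fold change of 0.02 (SE 0.0601, adjusted p = 0.863) over both harvests.

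The receptor chain genes IFNAR1 and IFNAR2 did not pass in any comparison. IFNAR1 had group means from 59.8 to 72.1 CPM, and IFNAR2, whose exons overlap those of a read-through gene, from 1.72 to 2.24 CPM. STAT2, a subunit of the interferon-activated complex, was lower in the knock-out. It stood at 126, 97.4 and 112 CPM in wild-type initial and 86.0, 73.8 and 69.9 CPM in knock-out initial libraries, then at 122, 102 and 96.4 CPM against 74.7, 90.1 and 75.5 CPM at the final harvest. The ranges were apart at each harvest. The log2 fold change was -0.55 (SE 0.117, adjusted p = 0.00314) and then -0.41 (SE 0.117, adjusted p = 0.0198). The final call was lost without wild-type final library 1 (-0.31, adjusted p = 0.0857), knock-out final library 1 (-0.37, adjusted p = 0.0783) or knock-out final library 3 (-0.38, adjusted p = 0.0655). The interferon regulatory factor genes IRF1, at 12.5 to 15.1 CPM, and IRF7, at 0.758 to 1.01 CPM, did not pass in any comparison.

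The IFIT genes encode proteins that bind viral RNA ends and block its translation. Over both harvests 3 of the 4 were higher in the knock-out and none lower, beside 14% and 16.1% of all genes tested. At each harvest 2 of the 4 passed, IFIT1 and IFIT5 initially (19.9% of all genes) and IFIT2 and IFIT3 finally (18.5%). None of the 4 passed in the interaction, and 1 had an unadjusted p under 0.05. IFIT1 had means of 12 ± 1.02 and 15.9 ± 0.506 CPM (SD, n = 3) in wild type and knock-out at the initial harvest (log2 fold change 0.41, adjusted p = 0.0134), then 12.5 ± 1.08 and 11.1 ± 1.42 CPM (-0.17, adjusted p = 0.329). The initial call was lost without knock-out initial library 2 (0.38, adjusted p = 0.0623). IFIT1 fell over time in the knock-out by 0.51 (SE 0.109, adjusted p = 0.0247), a call lost without any of the 3 knock-out initial libraries (-0.54, -0.49 and -0.53) or without knock-out final library 2 (-0.42). The interaction for IFIT1 was -0.58 (adjusted p = 0.0921) and did not pass.

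IFIT2 stood at 4.56, 4.74 and 5.54 CPM in wild-type final libraries and at 7.32, 5.76 and 7.43 CPM in knock-out final libraries, and IFIT3 at 4.61, 3.65 and 4.37 CPM against 6.14, 5.2 and 6.23 CPM. These ranges were apart, while those of the initial harvest overlapped. The final fold changes were 0.47 for IFIT2 (adjusted p = 0.0306) and 0.48 for IFIT3 (adjusted p = 0.0236). Each call was lost without any 1 of 4 libraries. For IFIT2 these were wild-type final 1 and 2 and knock-out final 1 and 3 (0.40 to 0.43), and for IFIT3 wild-type final 2 and 3 and knock-out final 1 and 3 (0.37 to 0.50). Over both harvests IFIT2 was at 0.29 (adjusted p = 0.0416), lost without any 1 of 8 libraries (0.23 to 0.28; all but wild-type initial 3, wild-type final 3, knock-out initial 1 and knock-out final 2), and IFIT3 at 0.31 (adjusted p = 0.0268), lost without any 1 of 5 (0.25 to 0.29; wild-type initial 2 and final 2, knock-out initial 2 and final 1 and 3). IFIT5 was the most abundant of the 4 in CPM, with means of 29.6 ± 1.08 and 40.7 ± 3.03 CPM (SD, n = 3) at the initial harvest (0.46, adjusted p = 0.00129) and 33.8 ± 1.67 and 39.4 ± 3.45 CPM at the final harvest (0.22, adjusted p = 0.0924).

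The enzymes that bind double-stranded RNA went both ways. The OAS genes encode synthetases that make the second messenger of RNase L, and OASL encodes a relative without that activity. OAS2 (ENSG00000111335.14, chr12:112978395-113011723, plus strand) was scarce, with 14 to 40 counts a library. It stood at 0.440, 0.371 and 0.350 CPM in wild-type initial and 0.832, 0.526 and 1.02 CPM in knock-out initial libraries, then at 0.380, 0.391 and 0.362 CPM against 0.553, 0.816 and 0.678 CPM. All 6 knock-out libraries lay above all 6 wild-type libraries. Its initial log2 fold change was 1.03 (SE 0.275, adjusted p = 0.0141), and the call was lost without wild-type initial library 3 (0.96, adjusted p = 0.0603) or knock-out initial library 3 (0.80, adjusted p = 0.0894). The final one was 0.85 (SE 0.286, adjusted p = 0.0492), and this call was lost without any 1 of 8 libraries (0.70 to 0.86), all but wild-type initial 1, knock-out initial 2 and 3 and knock-out final 1, under DESeq2 (0.86, adjusted p = 0.088) and with no count filter (0.84, adjusted p = 0.0866).

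OASL (ENSG00000135114.13, chr12:121017763-121039242, minus strand) moved the other way. It stood at 3.88, 4.10 and 4.28 CPM in wild-type initial and 2.04, 2.33 and 2.58 CPM in knock-out initial libraries. The final libraries held 6.92, 5.6 and 4.91 CPM in the wild type and 3.17, 2.35 and 3.09 CPM in the knock-out. Every knock-out library was below every wild-type library, with log2 fold changes of -0.82 (SE 0.161, adjusted p = 0.00169) and -1.02 (SE 0.154, adjusted p = 0.000175). OAS3, the most abundant synthetase gene in CPM, had means of 124 ± 4.05 and 136 ± 4.35 CPM (SD, n = 3) at the initial and 121 ± 6.70 and 135 ± 5.75 CPM at the final harvest. Its change over both harvests was 0.15 (SE 0.0517, adjusted p = 0.0395), a call lost with no count filter (0.14) and without any 1 of 9 libraries (0.12 to 0.16), all but wild-type initial 2, wild-type final 1 and knock-out final 2. OAS1, at 0.668 to 0.961 CPM, did not pass (0.26, adjusted p = 0.255). EIF2AK2, which encodes the RNA-activated kinase PKR, at 87.0 to 111 CPM (0.18, adjusted p = 0.141), and ADAR, at 431 to 479 CPM (-0.07, adjusted p = 0.351), did not pass either.

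**Figure D3:**
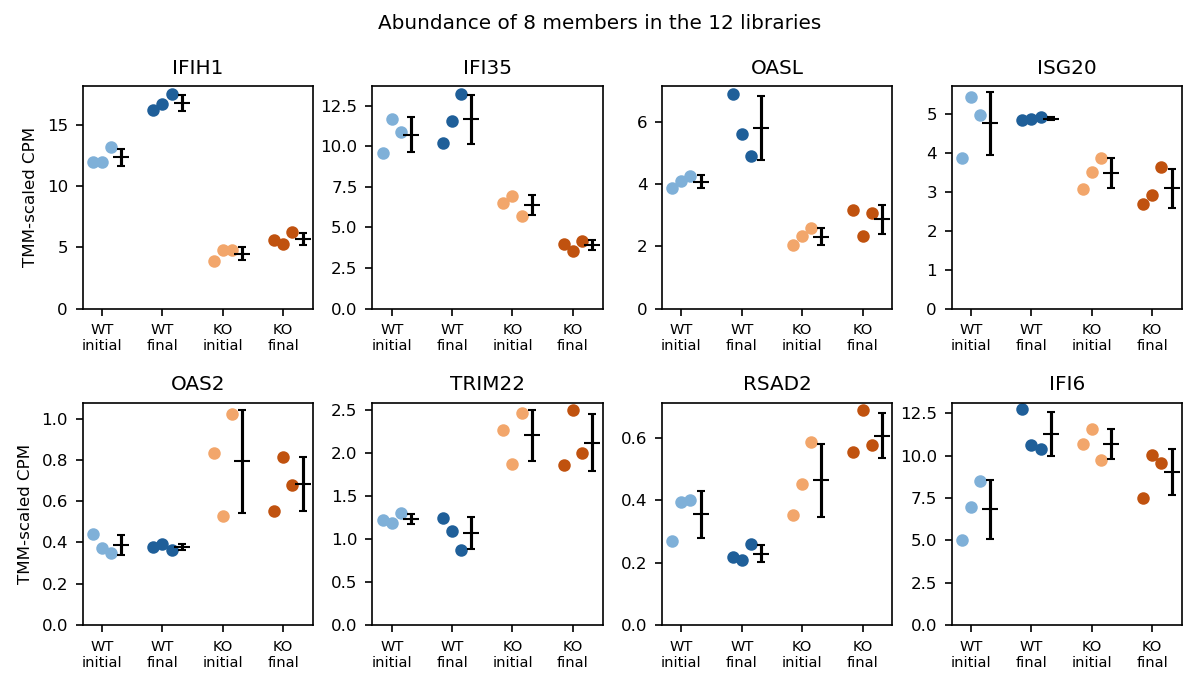
TMM-scaled CPM (y axis, from 0) of 8 members in each of the 12 libraries, grouped by genotype and harvest (x axis), with points for libraries and a bar for the mean and SD of 3. IFIH1, IFI35, OASL and ISG20 lie lower and OAS2 and TRIM22 higher in every knock-out library than in every wild-type library, and the order of IFI6 turns between harvests.

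ISG15 is attached to proteins by UBE2L6 and HERC5 and removed by USP18, and of these 4 genes UBE2L6 alone passed. ISG15 stood at 20.7, 49.1 and 34.0 CPM in the 3 wild-type initial libraries and between 38.0 and 55.1 CPM in the other 9. The libraries of that 1 group lay further apart than any of the group means, which ran from 34.6 to 49.2 CPM, and the log2 fold change over both harvests was 0.16 (SE 0.151, adjusted p = 0.458). UBE2L6, the conjugating enzyme gene, was lower at -0.27 (SE 0.0826, adjusted p = 0.0199), with means of 22.4 ± 2.16 and 18.4 ± 0.875 CPM (SD, n = 3) at the initial harvest. That call was lost without wild-type final library 2 (-0.23), knock-out initial library 1 (-0.25) or knock-out final library 2 (-0.22). HERC5, at 20.3 to 23.5 CPM (0.15, adjusted p = 0.0649), and USP18, at 2.37 to 2.99 CPM (-0.23, adjusted p = 0.0837), did not pass.

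Of the ubiquitin ligase genes, TRIM22 and TRIM21 were higher and HERC6 was lower. TRIM22 (ENSG00000132274.16, chr11:5689697-5737089, plus strand), an antiviral ligase gene, stood at 1.22, 1.19 and 1.30 CPM in wild-type initial and 2.27, 1.88 and 2.48 CPM in knock-out initial libraries. The final values were 1.25, 1.09 and 0.880 CPM against 1.86, 2.5 and 2.01 CPM. Its genotypes did not overlap, and the log2 fold change was 0.84 (SE 0.179, adjusted p = 0.00319) and then 0.98 (SE 0.185, adjusted p = 0.00117). An olfactory receptor gene shares 10.8% of the exon bases of TRIM22 on the same strand. TRIM21, the cytosolic antibody receptor gene, had means of 15.1 ± 2.01 and 21.3 ± 0.586 CPM (SD, n = 3) at the initial harvest (0.50, adjusted p = 0.0038) and 17.0 ± 0.604 and 19.9 ± 2.61 CPM at the final harvest (0.23, adjusted p = 0.167).

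HERC6 had means of 14.9 ± 0.725 CPM in wild-type final and 10.7 ± 1.36 CPM (SD, n = 3) in knock-out final libraries (-0.48, adjusted p = 0.00392). At the initial harvest its change of -0.29 did not pass (adjusted p = 0.0724), though the ranges were apart. TRIM25, at 236 to 243 CPM, and DTX3L, at 24.3 to 29.1 CPM, did not pass (0.03 and -0.07 over both harvests). PARP9, whose product pairs with that of DTX3L and whose exons overlap those of DTX3L on the other strand, was lower by contrast, at -0.30 over both harvests (adjusted p = 0.00393). Its initial call (-0.31, adjusted p = 0.0386) was lost without any 1 of 7 libraries (-0.34 to -0.21), which were wild-type initial 1 and 3, wild-type final 2, knock-out final 1 and all knock-out initial libraries. The related genes PARP12 and PARP14 stood at 0.07 and -0.00 and did not pass.

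Of the 5 genes grouped as IFI genes, named for their induction by interferon, 4 were tested, and the interaction of genotype and time passed for IFI35 and IFI6. IFI35 (ENSG00000068079.8, chr17:43006740-43014456, plus strand) encodes a leucine zipper protein. It stood at 9.60, 11.7 and 10.9 CPM in wild-type initial libraries, 10.2, 11.5 and 13.2 CPM in wild-type final, 6.51, 6.92 and 5.69 CPM in knock-out initial and 4.0, 3.57 and 4.19 CPM in knock-out final libraries. The 3 knock-out final libraries were the lowest of all 12, and the 3 knock-out initial libraries came next. The log2 fold change between genotypes went from -0.75 (SE 0.124, adjusted p = 0.000367) at the initial to -1.57 (SE 0.129, adjusted p = 2.12e-07) at the final harvest. IFI35 fell over time in the knock-out by 0.70 (SE 0.132, adjusted p = 0.0123), while its change in the wild type was 0.12 (adjusted p = 0.638). The interaction, the change over time in the knock-out minus that in the wild type, was -0.82 (SE 0.178, adjusted p = 0.0306). The fall over time in the knock-out lost its call without knock-out initial library 1 (-0.69), knock-out initial library 2 (-0.64) or knock-out final library 2 (-0.64). The interaction lost its call without any 1 of 8 libraries (-0.84 to -0.73), which were wild-type initial 1 and 3, wild-type final 2 and 3, knock-out initial 1 and 2 and knock-out final 1 and 2.

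IFI6 (ENSG00000126709.16, chr1:27666064-27672212, minus strand) encodes a small protein that protects cells from apoptosis and from flaviviruses. It stood at 5.03, 6.97 and 8.48 CPM in wild-type initial libraries, 12.8, 10.7 and 10.4 CPM in wild-type final, 10.7, 11.6 and 9.77 CPM in knock-out initial and 7.52, 10.0 and 9.54 CPM in knock-out final libraries. The order of the genotypes turned between the harvests. The knock-out was above the wild type without overlap at the initial harvest (0.65, SE 0.162, adjusted p = 0.00958) and below it without overlap at the final harvest, where the change did not pass (-0.32, adjusted p = 0.198). The rise over time in the wild type passed (0.72, SE 0.162, adjusted p = 0.013), though not in a fit of those 2 groups alone (adjusted p = 0.0514), and the change in the knock-out was -0.24 (adjusted p = 0.517). The interaction was -0.96 (SE 0.228, adjusted p = 0.0497), and its call was kept only without wild-type initial library 2 or 3. Without any of the other 10 libraries it ranged from -1.05 to -0.79 with adjusted p between 0.0507 and 0.162. LINC02574 shares 23.1% of the exon bases of IFI6. IFI44, at 0.555 to 0.749 CPM, and IFI27, at 0.177 to 0.354 CPM, did not pass in any comparison.

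The nuclear body genes SP100 and SP110 were lower in the knock-out over both harvests, by modest amounts. SP110 fell by 0.29 (SE 0.0619, adjusted p = 0.00195) and SP100 by 0.22 (SE 0.0555, adjusted p = 0.00576). SP110 stood at 16.0, 17.4 and 17.2 CPM in wild-type final libraries and at 12.6, 13.4 and 12.8 CPM in knock-out final libraries (-0.38, adjusted p = 0.0051). Its wild-type initial libraries, at 12.5, 12.6 and 13.3 CPM, lay at the level of the knock-out final libraries. SP100 had means of 40.7 ± 2.84 and 34.2 ± 1.16 CPM (SD, n = 3) at the initial harvest (-0.25, adjusted p = 0.0359), a call lost without any 1 of 6 libraries (-0.28 to -0.20; wild-type initial 3, wild-type final 2 and 3 and all knock-out initial) and with no count filter (-0.25, adjusted p = 0.126).

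Among the remaining effectors, ISG20 and SAMD9 were lower and RSAD2 and CMPK2 higher. ISG20 (ENSG00000172183.16, chr15:88635670-88656483, plus strand), an RNA exonuclease gene, stood at 3.86, 5.44 and 4.96 CPM in wild-type initial, 4.83, 4.87 and 4.91 CPM in wild-type final, 3.08, 3.51 and 3.85 CPM in knock-out initial and 2.69, 2.91 and 3.64 CPM in knock-out final libraries. All knock-out libraries were below all wild-type libraries, though the closest, at 3.85 and 3.86 CPM, all but touched. The final fold change was -0.66 (SE 0.153, adjusted p = 0.00554). The initial one was -0.45 (SE 0.151, adjusted p = 0.0465), a call lost without any 1 of 9 libraries (-0.53 to -0.34), all but wild-type initial 1, wild-type final 1 and knock-out final 3, and with upper-quartile scaling (-0.43, adjusted p = 0.052).

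RSAD2 (ENSG00000134321.13, chr2:6865557-6898239, plus strand) encodes viperin, a radical SAM enzyme, and CMPK2, its neighbour on the other strand, a mitochondrial nucleotide kinase. RSAD2 was scarce, with 8 to 27 counts a library. It stood at 0.269, 0.395 and 0.400 CPM in wild-type initial and 0.353, 0.451 and 0.587 CPM in knock-out initial libraries, which overlapped (0.38, adjusted p = 0.381). At the final harvest it stood at 0.217, 0.208 and 0.259 CPM in the wild type and 0.553, 0.689 and 0.578 CPM in the knock-out, which were apart (1.40, SE 0.296, adjusted p = 0.00293). The interaction of 1.01 did not pass (adjusted p = 0.319), so the effects at the 2 harvests were not shown to differ. CMPK2 had means of 1.87 ± 0.135 and 2.93 ± 0.353 CPM (SD, n = 3) at the final harvest (0.65, adjusted p = 0.00742), and at the initial harvest its change was 0.27 (adjusted p = 0.233). The exons of the pair overlap over 6.2% of the bases of RSAD2 and 8% of those of CMPK2, and whether the counting used strand is not given in the sources used here.

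SAMD9, a restriction factor gene for poxviruses, was the member with the largest rise over time in the wild type. It stood at 19.8, 14.4 and 20.8 CPM in wild-type initial libraries and at 31.5, 30.4 and 30.01 CPM in wild-type final libraries (0.74, SE 0.113, adjusted p = 0.000749). The knock-out held 16.3, 17.6 and 17.6 CPM and then 22.3, 20.5 and 20.1 CPM, a change of 0.29 that did not pass (adjusted p = 0.244), with the interaction at -0.46 (adjusted p = 0.227). At the final harvest the knock-out was lower than the wild type, with a log2 fold change of -0.55 (SE 0.113, adjusted p = 0.00232). MX1, an antiviral GTPase gene at 1.41 to 1.72 CPM, BST2, the tetherin gene, at 2.24 to 3.13 CPM, PLSCR1, at 25.05 to 28.97 CPM, and LGALS3BP did not pass in any comparison.

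**Figure D4:**
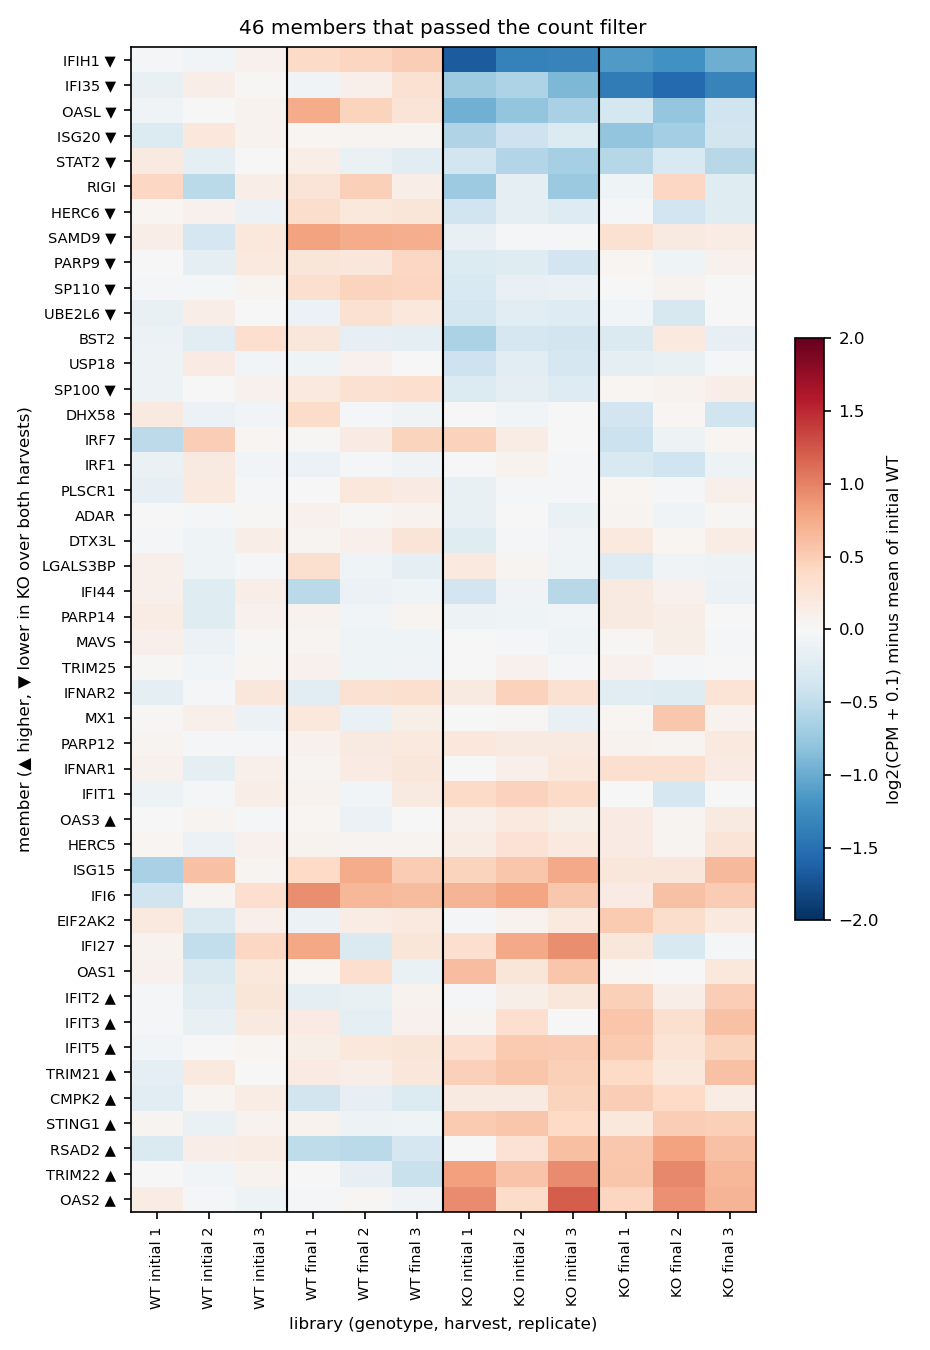
Difference of each of the 46 tested members (rows) in each of the 12 libraries (columns) from the mean of the wild-type initial libraries, on the log2(CPM + 0.1) scale (colour), with triangles for members higher or lower in the knock-out over both harvests. Rows of both colours stand side by side in every knock-out library. The member medians of the 6 final libraries lie above the reference (0.05 to 0.12), as do those of wild-type initial library 3 (0.07) and knock-out initial library 2 (0.07).

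Set side by side, the 2 harvests gave similar numbers of members in each direction. At the initial harvest 14 of 46 members passed (30.4%), 7 higher and 7 lower, where 19.9% of all genes passed, 8.55% higher and 11.3% lower. At the final harvest 15 of 46 passed (32.6%), 7 higher and 8 lower, where 18.5% of all genes passed, 8.38% higher and 10.2% lower. The member median was 0.01 at the initial harvest and -0.08 at the final harvest, and that of all genes was 0 and -0.0008. A member whose 3 libraries of each genotype did not overlap was found 24 times at the initial harvest, where 35.5% of all genes did not overlap, and 20 times at the final harvest, where it was 33.1%. Passing members with a change of at least 2-fold numbered 2 at the initial harvest, IFIH1 and OAS2, and 4 at the final harvest, IFIH1, IFI35, OASL and RSAD2.

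The harvests had separate libraries for both genotypes, so their calls can be laid over each other. Of the 46 members 8 passed at both, all in the same direction at both. STING1, OAS2 and TRIM22 were higher, and IFIH1, STAT2, OASL, IFI35 and ISG20 lower. Of these calls, those of OAS2 at both harvests, STING1 and STAT2 at the final harvest and ISG20 at the initial harvest were each lost without single libraries, as given with their values. Another 6 passed at the initial harvest only (IFIT1, IFIT5, TRIM21 and IFI6 higher, PARP9 and SP100 lower), and 7 at the final harvest only (IFIT2, IFIT3, RSAD2 and CMPK2 higher, HERC6, SP110 and SAMD9 lower). For these 13, a call at 1 harvest alone is not a tested difference between harvests, except for IFI6, whose interaction passed. The sign was the same at both harvests for 32 of 46 members (69.6%), and for 69.2% of all genes tested. Passing at both harvests was seen in 17.4% of the members and 10.7% of all genes.

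**Figure D5:**
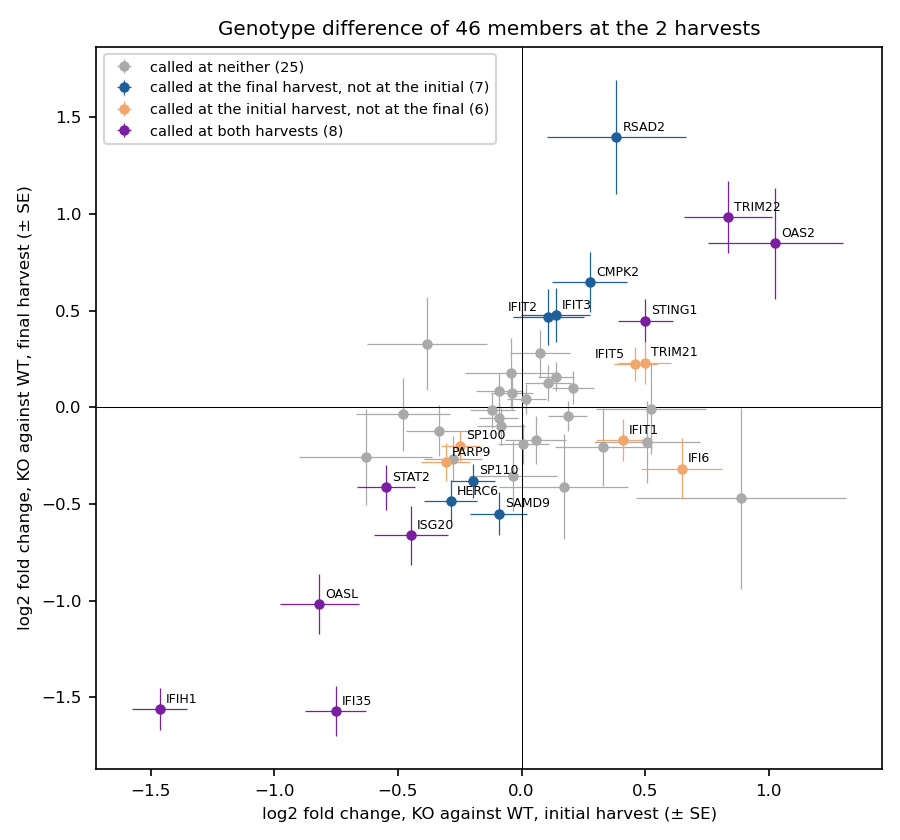
Log2 fold change between the genotypes (knock-out over wild type) in the initial (x axis) and final (y axis) libraries for the 46 tested members, each with its SE, coloured by the harvests at which it passed. IFIH1 lies at -1.46 and -1.56, IFI35 lies further down on the y axis than on the x axis, and the 8 members that passed at both harvests share their sign.

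Fewer members passed between the harvests within a genotype, where culture time and any other difference between harvests cannot be told apart. In the wild type 5 of 46 passed (10.9%) and all 5 rose, where 6.47% of all genes passed, 3.05% higher and 3.42% lower. These were SAMD9, IFI6, IFIH1, SP110 (0.40, adjusted p = 0.01) and SP100 (0.28, adjusted p = 0.0449). The member median was 0.08, with 32 above 0 and 14 below, and that of all genes was 0.0056. Against the mean of the wild-type initial libraries, the median of the 46 members was 0.07, 0.07 and 0.12 in the wild-type final libraries and 0.05, 0.06 and 0.08 in the knock-out final libraries on the log2(CPM + 0.1) scale. It was between -0.04 and 0.07 in the 6 initial libraries, and the median of all genes was between -0.0182 and 0.0175 in all 12. Without wild-type final library 2 the count was 2 in place of 5, and in a fit of the 2 wild-type groups alone it was 2. The SP100 call was lost with no count filter (0.27, adjusted p = 0.153) and without any 1 of 11 libraries, all but wild-type final library 1, and that of SP110 was lost without wild-type final library 2 (0.38, adjusted p = 0.0521).

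In the knock-out 2 of 46 members passed over time (4.35%), both lower, IFIT1 and IFI35, where 1.48% of all genes passed, 0.837% higher and 0.64% lower. The member median was 0.07 against 0.0046 over all genes. The count was 0 without knock-out initial library 1, knock-out initial library 2 or knock-out final library 2, and 1 without knock-out initial library 3. It was 3, with 1 higher and 2 lower, in a fit of the 2 knock-out groups alone, under DESeq2 and with upper-quartile scaling. The same 3, 1 and 2 were found where genes needed a log2 CPM of 1 on average. In the interaction 2 of 46 passed (4.35%), IFI35 and IFI6, both below 0, where 1.28% of all genes passed, 0.809% above and 0.476% below 0, and 7 members had an unadjusted p under 0.05. The 4 comparisons within harvests and within genotypes share libraries in pairs, and their values are given side by side only.

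Counting both directions together, genes of the same pathway outside the 53 members passed about as often as genes at large. Of 65 such genes 48 were tested, and 15 passed over both harvests (31.2%), 4 higher and 11 lower, with a median of 0.0001. Of all genes 30.1% passed, 14% higher and 16.1% lower. The interferon genes themselves were almost silent, since 8 of the 9 on the list failed the count filter. IFNE, an interferon of epithelia, was the one tested, and it was chosen for naming after its values were seen. It stood at 1.93, 1.51 and 1.45 CPM in wild-type final and 0.478, 0.791 and 0.553 CPM in knock-out final libraries (-1.42, adjusted p = 0.000525), and at the initial harvest its change did not pass (-0.50, adjusted p = 0.153). Among other receptors and kinases 3 of 7 passed (1 higher, 2 lower), among other sensing and signalling genes 4 of 13 (2 higher, 2 lower), among other transcription factors and inhibitors 3 of 7 (1 higher, 2 lower) and among other induced genes 4 of 20, all lower.

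DDX60L, a helicase-like gene related to the sensor family and not well characterised, was the one gene of that list with a passing change of at least 2-fold over both harvests. It stood at 83.6, 57.6 and 75.5 CPM in wild-type initial and 31.6, 30.02 and 29.6 CPM in knock-out initial libraries, then at 95.7, 97.1 and 99.3 CPM against 36.2, 40.0 and 30.4 CPM. The genotypes did not overlap at either harvest, and the fold change over both harvests was -1.35 (SE 0.0852, adjusted p = 4.03e-09). SOCS1, a feedback inhibitor of the receptor kinases, also chosen after its values were seen, stood at 0.317, 0.717 and 0.350 CPM in wild-type initial libraries and between 0.981 and 1.33 CPM in the other 9. Its change between genotypes was 1.34 (adjusted p = 0.00164) at the initial and 0.02 (adjusted p = 0.969) at the final harvest, and the interaction was -1.32 (adjusted p = 0.0937).

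Neighbouring genes were described for 8 of the members given in every library and for DDX60L, as the 10 tested genes on each side. This description was chosen after the values were seen. Of all genes tested 30.1% passed over both harvests, 14% higher and 16.1% lower. At the initial harvest 19.9% of all genes passed, and at the final harvest 18.5%. Around IFIH1 11 of 20 neighbours passed over both harvests, 4 higher and 7 lower, with a median of -0.05. At the initial harvest 8 of them passed, 1 higher and 7 lower, with a median of -0.27, and at the final harvest 9 passed, 4 higher and 5 lower, with a median of 0.06. IFIH1 itself was at -1.46 and -1.56. Around IFI35 7 of 20 passed, 2 higher and 5 lower, with a median of -0.09. Around OASL all 6 that passed were higher, while OASL was lower. Around ISG20 9 passed, 4 higher and 5 lower, with a median of 0.07. Around IFI6 3 passed, all lower, with a median of -0.04. Around TRIM22 11 of 20 passed, 8 of them higher, with a median of 0.31. Around RSAD2 8 passed, 6 of them higher, with a median of 0.18, and around OAS2 6 passed, 5 of them higher, with a median of 0.06. TRIM22, RSAD2 and OAS2 were higher themselves. Around DDX60L 9 passed, 1 higher and 8 lower, with a median of -0.17. The part of the neighbourhood in the members' values was not tested.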

How the data were processed

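Libraries were poly-A selected, per the labels' protocols. The authors deposited 1 table of raw counts per gene for 12 libraries. The submitters' processing notes name STAR, Subread featureCounts and the build hg38, without versions. Strand use is not given in the sources used here. The table names its genes by Ensembl identifier, and a reference list of gene names gave symbols for 60506 of the 60648 genes. The 5 lines of 1 broken gene were left out. Counts were analysed with edgeR 4.0.16 in R 4.3.3 (TMM scaling, filterByExpr by group, robust quasi-likelihood fit, 1 mean per group, Benjamini-Hochberg adjustment over the 18289 genes tested). CPM values use TMM-scaled library sizes, and errors are SD over 3 libraries. The pipeline was tested on simulated data with the same spread for every gene and the same size of change for every changed gene. Smaller changes and changes in scarce genes were not covered by it. Members, lists and tests were chosen with earlier results of these data known. Values in every library are given for members called in the interaction and those with the largest called change over both harvests, up to 8. A few more members shown this way were chosen after their values were seen. A floor is 3 counts in a library and covers counting error only. Deviations of same-numbered libraries from their group means correlated unevenly, with r from -0.59 to 0.533 and over 0.1 in 8 of 18 pairs. Between libraries of different number r ran from -0.772 to 0.728, the highest for wild-type initial 2 and knock-out final 3. Numbers were therefore not used as pairs in the main fit. Any deviation that libraries of different groups share was not modelled there. Alternatives were DESeq2 1.42.0, edgeR's RLE or upper-quartile scaling, no filter or a stricter one, and a test against 1.5-fold. Others were the 2 groups alone, a replicate block and each library left out. Promoter sequences are from RefSeq (GRCh38.p14).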

Additional observations from a re-analysis of the deposited data

Results flagged for a closer look

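For 2 members the effect of genotype differed between the harvests by the test of the difference itself, edgeR's interaction of genotype and time with adjustment over all genes. The interaction was -0.96 for IFI6 (adjusted p = 0.0497) and -0.82 for IFI35 (adjusted p = 0.0306). The IFI6 genotypes changed order, while IFI35 was lower in the knock-out at both harvests and by more at the final one. Both calls depended on single libraries, as given above.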

How the results depend on the processing

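The 59 called results of members had 1149 values under the alternatives. Of these 973 stayed past the threshold in the same direction, 176 no longer passed and 0 changed direction. Against a change of 1.5-fold, members passing numbered 1 initially, 4 finally, 3 over both harvests, and 0 in each of the 3 tests that involve time (wild type, knock-out, interaction). All genes passing that test numbered 643, 699, 868, 86, 16 and 36 in the same order. In a fit of the 2 groups alone, 2 members passed over time in the wild type, and the interaction had 1 with upper-quartile scaling and 1 where genes needed a log2 CPM of 1 on average. All genes passing over time with 2 groups alone were 578 for wild-type cells and 728 for knock-out cells, against 1183 and 270. Over time in the knock-out DESeq2 passed 602 and no filter 484, and in the interaction 472 and 423, against 235. With each library left out in turn, members passing ranged from 10 to 16 at the initial harvest, 11 to 16 at the final, 17 to 22 over both, 2 to 5 over time in the wild type, 0 to 3 in the knock-out and 0 to 3 in the interaction. All genes passing ranged from 2423 to 4615, 2561 to 3895, 4657 to 6039, 627 to 1399, 94 to 463 and 124 to 444. With a replicate block, which joins libraries by number only, the member counts were 15, 14, 20, 5, 2 and 2. The block ended the call of OAS2 at the final harvest (0.85, adjusted p = 0.066) and of OAS3 over both harvests (0.15, adjusted p = 0.0623) and no other member call. With no count filter 6 members passed over time in the wild type, 1 of them lower, IFI16. The call of IFIH1 against wild type held at each harvest under every alternative run.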
